A study of Mus musculus with 18 samples.

Results

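Knockout of Sam68 in undifferentiated mouse embryonic stem cells was compared with unedited cells by ribosome profiling, which counts the short mRNA pieces that a translating ribosome shields from nuclease. The comparison rests on 6 of the 18 libraries of the series, chosen by title: 3 of the Sam68 knockout line (KO) and 3 of the wild type (WT), both at day 0, before differentiation was started. Both lines share the E14 background, a mouse embryonic stem cell line, and all cells received cycloheximide before lysis to hold ribosomes in place. The other libraries are the same lines after 10 days of embryoid body differentiation, in which aggregated stem cells form early embryonic cell types, and a Quaking KO line at both days. The series describes each group of 3 as biological triplicates. The labels do not say how the knockout was made or whether the line was 1 clone.

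Sam68, encoded by Khdrbs1, is a member of the STAR family of RNA-binding proteins, as is Quaking. It binds short A- and U-rich stretches of RNA as a dimer and is best known for regulating alternative splicing and the choice of 3′ ends, and it is phosphorylated by Src-family kinases. In stem cells, control of splicing and of mRNA translation is part of how the pluripotent state is kept or left. A footprint count rises with the amount of an mRNA and with the rate at which ribosomes load on it, and without a matched mRNA measurement these cannot be told apart. In these bulk cultures, fewer cells of a kind and less RNA per cell cannot be told apart either.

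Total counts were 4629369 to 8062158 in the Sam68 KO libraries and 5413775 to 10646768 in WT at day 0. The 10 most abundant features took 7.01% to 8.68% of the counts in Sam68 KO and 9.34% to 13.4% in WT, and replicates correlated at 0.968 to 0.981 and 0.983 to 0.989 across genes (log2 CPM, the counts scaled for library size). At day 10 the 10 most abundant features of a library took over 40% of its counts in 3 libraries, WT replicate 3 and Sam68 KO replicates 2 and 3. The Sam68 KO day 0 libraries were sequenced in the pool labelled MIX_2 and the WT day 0 libraries in MIX_1, so genotype and pool cannot be told apart in this comparison. The Quaking KO day 0 libraries were in MIX_1 as well. At day 10 the WT libraries were in MIX_2, and those of Sam68 KO and Quaking KO in MIX_3. The features carry Ensembl IDs, which neither the files nor the reference table used here pair with gene names. The loss of Sam68 itself, the stem cell identity of the cultures and the functions of the changed genes were therefore not examined, and genes are described by ID and by their course in other libraries.

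Sam68 KO stem cells differed from WT in a small set of genes, in both directions and by larger folds downward. Of 13701 genes tested, 85 were higher and 88 lower in Sam68 KO, 1.26% in all (quasi-likelihood test of edgeR, two-sided, with p-values adjusted by Benjamini-Hochberg and a threshold of 0.05, as in all tests of edgeR below). The higher genes had a median log2 fold change of 1.14, with 48 of 85 changed at least 2-fold (0.350% of all genes tested), 19 at least 4-fold and 7 at least 8-fold. The lower genes had a median of -2.27, with 69 of 88 changed at least 2-fold (0.504%), 50 at least 4-fold and 27 at least 8-fold. The median of all genes tested was 0.02. In 170 of the 173 genes the 3 Sam68 KO libraries did not overlap the 3 WT libraries, which was so for 21.7% of all genes tested. Of the lower genes 3 had no count in any Sam68 KO library, and of the higher genes 1 had none in WT. Among all 13701 genes tested these numbers were 116 and 148. Whether called or not, 306 of all genes tested differed at least 4-fold in either direction and 104 at least 8-fold.

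**Figure D1:**
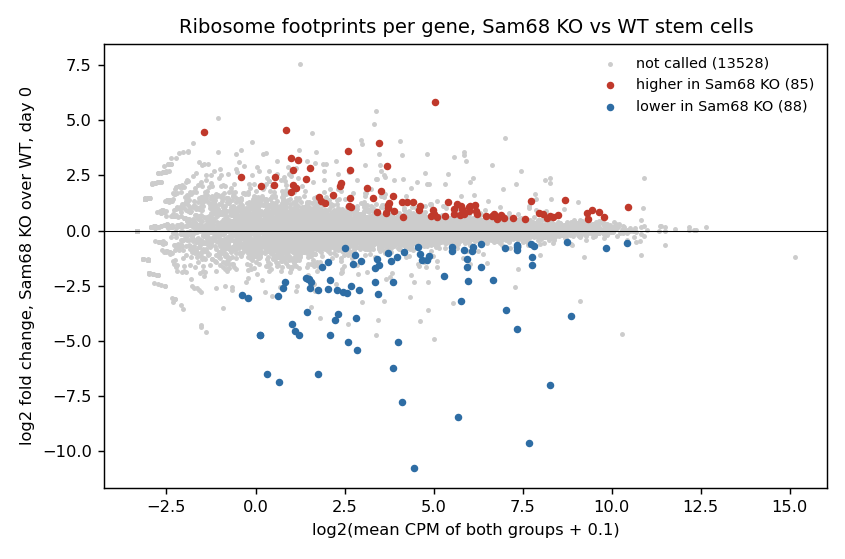
Log2 fold change of Sam68 KO over WT at day 0 against mean level (log2 CPM) for the 13701 genes tested, 1 point per gene; red points are the 85 higher and blue points the 88 lower genes, and grey points did not pass. The blue points reach further from 0, to -10.75, than the red points, which reach 5.84.

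How many genes passed depended on which libraries entered the fit, which sets the filter, the scaling and the spread together. The 18 libraries had a biological coefficient of variation of 0.229. The 6 libraries alone, with 12169 genes tested, had one of 0.157, and 147 genes were higher and 150 lower, 61 and 66 of them shared with the 85 and 88. The 9 libraries of day 0, with 12429 genes tested, gave 195 higher and 190 lower, sharing 69 and 74. The balance of higher and lower genes moved with single libraries, to 134 higher and 83 lower without Sam68 KO replicate 1 and to 33 and 60 without WT replicate 3. There were 61 higher and 60 lower without Sam68 KO replicate 2, 40 and 50 without Sam68 KO replicate 3, 54 and 71 without WT replicate 1, and 35 and 46 without WT replicate 2. With all libraries thinned to 988210 counts, 36 genes passed.

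The lower features with the most extreme folds went from clear expression to near absence. Feature ENSMUSG00000061928.6 measured 44.6, 46.7 and 39.3 CPM in the 3 WT libraries and had no count in any of the Sam68 KO libraries. Its level was at least 103-fold lower in Sam68 KO, taking 3 counts per library as the floor (edgeR, adjusted p = 7.32e-11). It was also present in all 3 Quaking KO libraries at day 0, at 53.4, 67.2 and 55.2 CPM, which shared pool MIX_1 with WT. By day 10 it was all but absent from every line, with 1 count over the 9 libraries, in WT replicate 2.

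Feature ENSMUSG00000047228.9 measured 493, 312 and 415 CPM in WT and 0.519, 0.402 and 0.591 CPM in Sam68 KO, from 3, 4 and 4 counts. The groups lay far apart, at a ratio of means of 807 (edgeR, adjusted p = 1.49e-17, for a log2 fold change of -9.62 with an SE of 0.29). The Quaking KO libraries at day 0, at 171, 247 and 216 CPM, lay with WT in this respect, and shared its pool. This feature too was low at day 10, with means of 3.76 ± 2.86 CPM in WT, 0.803 ± 0.285 in Sam68 KO and 0.18 ± 0.156 in Quaking KO (SD, n = 3), from 26, 10 and 2 counts. The day 10 difference between Sam68 KO and WT did not pass (edgeR, adjusted p = 0.444, log2 fold change of -1.37 with an SE of 0.446).

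The 2 higher features were at a few counts in WT and abundant in Sam68 KO. Feature ENSMUSG00000097575.2 measured 1.89, 1.4 and 0.388 CPM in WT and 56.8, 70.4 and 65.4 CPM in Sam68 KO, a ratio of means of 52.4 (edgeR, adjusted p = 0.00237, log2 fold change of 5.84 with an SE of 0.803). In Quaking KO at day 0, in the same pool as WT, it measured at most 1.25 CPM. At day 10 it was present in all lines, at 7.8, 10.2 and 58.7 CPM in WT, 11.8, 35.8 and 19.4 in Sam68 KO and 2.78, 1.29 and 8.69 in Quaking KO. WT and Sam68 KO overlapped there only through WT replicate 3, whose 58.7 CPM came from 25 counts. In that library the 10 most abundant features took 70.4% of the counts. WT replicates 1 and 2 lay below every Sam68 KO library. The difference between WT and Sam68 KO did not pass (edgeR, adjusted p = 0.999, log2 fold change of 0.54 with an SE of 0.762).

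Feature ENSMUSG00000021381.4 measured 1.02, 1.68 and 1.16 CPM in WT and 14.2, 15.7 and 32.4 CPM in Sam68 KO, where replicate 3 was the highest. The ratio of means was 16.1 (edgeR, adjusted p = 0.0098, log2 fold change of 4.00 with an SE of 0.732). The call was lost without WT replicate 1 (edgeR, adjusted p = 0.0653), 2 (0.0605) or 3 (0.0965) and on thinning (0.411), with log2 fold changes of 3.61 to 4.19. At day 10 Sam68 KO was low, at 1.38, 1.43 and 1.85 CPM, from 11, 3 and 2 counts. All 3 WT libraries lay above it, at 4.05, 2.44 and 30.5 CPM, from 27, 11 and 13 counts. Few features dominated the last of these WT libraries. The day 10 difference did not pass either (edgeR, adjusted p = 0.722, log2 fold change of -2.10 with an SE of 0.966).

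**Figure D2:**
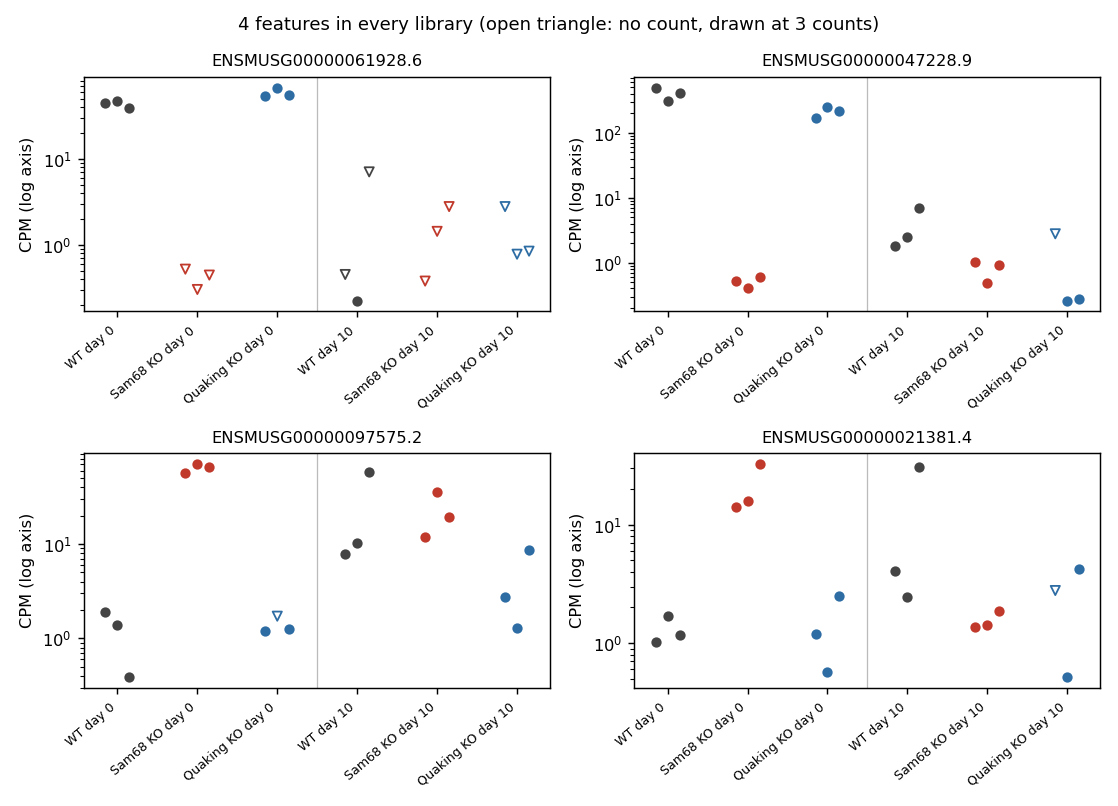
Level in CPM (log axis) of 4 features in each of the 18 libraries, 1 point per library, grouped by line and day; open triangles are libraries with no count, drawn at the level of 3 counts. ENSMUSG00000061928.6 and ENSMUSG00000047228.9 were high in WT and Quaking KO at day 0 only, and ENSMUSG00000097575.2 was at 56.8 to 70.4 CPM in Sam68 KO at day 0 where no WT or Quaking KO library of that day exceeded 1.89.

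The levels of the called genes were followed as 1 median per library. The median of the 85 higher genes was 15.1, 16.8 and 15.3 CPM in the WT libraries and 30.0, 34.4 and 41.8 CPM in Sam68 KO at day 0. These values follow from the choice of the genes and are given as a description. In the Quaking KO libraries of day 0 the median of the same genes was 14.0, 13.8 and 10.9 CPM. These libraries were not compared in the choice but entered its fit, and they came from MIX_1, as the WT ones did. By day 10 it had a range of 70.5 to 82.6 CPM in WT, 69.4 to 74.1 in Sam68 KO and 39.5 to 46.4 in Quaking KO, while the median of all genes was 17.4 to 18.8 CPM over those 9 libraries. The choice of the genes favours high Sam68 KO values at day 0, and these lay below every WT and Sam68 KO library of day 10. Replicate 3 of Sam68 KO at day 0, at 41.8 CPM, lay inside the Quaking KO range of day 10.

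The 88 lower genes had a median of 17.0, 19.8 and 18.4 CPM in WT at day 0 and of 3.46, 3.66 and 3.47 CPM in Sam68 KO. In Quaking KO at day 0 it was 14.0, 14.1 and 16.9 CPM. At day 10 it was 12.7 to 19.7 CPM in WT, 11.6 to 17.4 in Sam68 KO and 10.3 to 14.9 in Quaking KO. The Sam68 KO day 0 libraries had the lowest medians of all 18, but the genes were chosen for low values in these libraries.

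**Figure D3:**
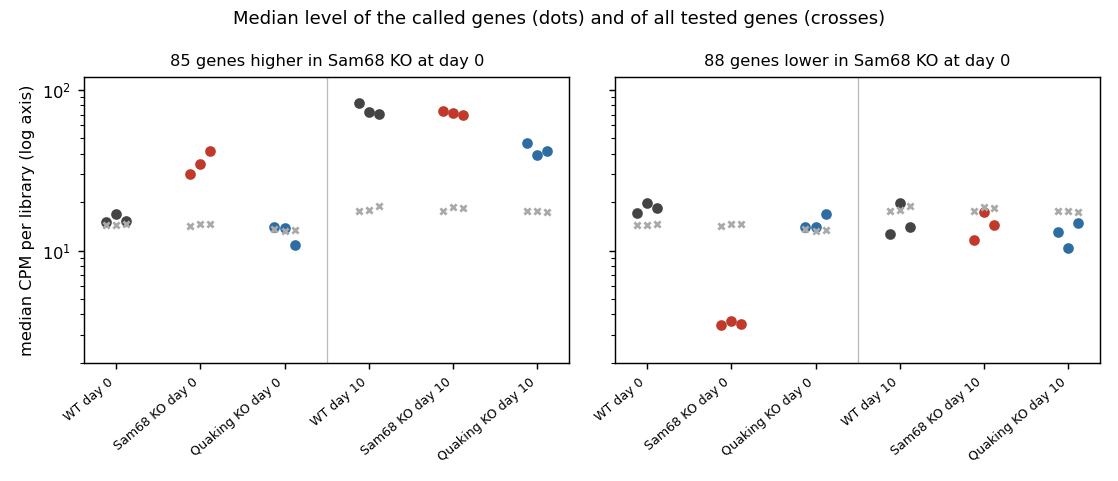
Median level in CPM (log axis) per library of the 85 higher (left) and 88 lower (right) genes as dots, with the median of all 13701 genes tested as grey crosses, by line and day. The left dots of Sam68 KO at day 0 lie at 30.0 to 41.8 CPM, above the other day 0 libraries, and the right dots at 3.46 to 3.66 CPM, below all others; WT and Sam68 KO at day 0 were used to choose the genes.

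The called genes were set against their course over differentiation in the Quaking KO line. Its libraries are not compared in the day 0 test but enter the same fit. That line had 3805 genes at least 2-fold higher at day 10 than at day 0 (27.8% of those tested, by edgeR), here the rising genes, and 2713 at least 2-fold lower (19.8%), the falling genes. Of the 85 genes higher in Sam68 KO stem cells 55 were rising (64.7%) and 5 falling (5.88%). Of the 88 lower genes 40 were falling (45.5%) and 19 rising (21.6%). Over the whole lists the shift was small. Among the rising genes 55 were higher and 19 lower, with a median log2 fold change of 0.07, and among the falling genes 5 were higher and 40 lower, with a median of -0.01, against 0.02 for all genes.

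The shares among the higher genes were closer to the background when only day 0 libraries were fitted. In the fit of the 6 libraries compared, 38.1% of the higher genes were rising and 14.3% falling, where 20.8% and 22.1% of the genes tested were. In the fit of the 9 day 0 libraries 33.3% of the higher genes were rising and 20.0% falling, against 20.6% and 21.8%. Among the lower genes the share of falling ones was 40.0% and 36.3% in these fits, also closer to the background, while that of rising ones, 12.7% and 12.6%, lay further below it than the 21.6% with all libraries. The Quaking KO libraries of day 0 came from MIX_1, as the WT ones did, and those of day 10 from MIX_3, and the part of the pool in these shares was not tested.

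**Figure D4:**
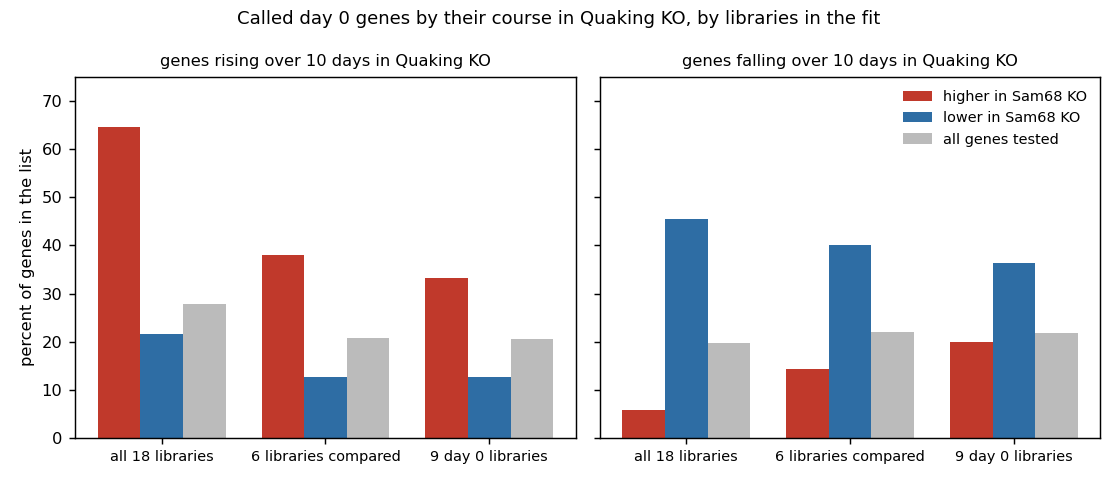
Percent of the genes called higher (red) or lower (blue) in Sam68 KO at day 0, and of all genes tested (grey), that rose (left) or fell (right) at least 2-fold over 10 days in Quaking KO, for 3 choices of libraries in the fit. The red bar at the left drops from 64.7% to 38.1% and 33.3% and stays above the grey bar, and the blue bar at the right goes from 45.5% to 40.0% and 36.3%.

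Genes that mark a single phase of the cell cycle were counted as a fixed list. Of the mouse marker genes distributed with scran, 11 marked G1 only, 35 S only and 29 G2/M only among the genes tested. In all, 1 S-phase gene was higher in Sam68 KO and none was lower, 1.33% of the 75 marker genes, where 1.26% of all genes were called (0.620% higher and 0.642% lower, by edgeR). A share so near the background is not a result about the markers. An unadjusted p under 0.05 was found for 4 of the 75 (5.33%), 2 in S and 2 in G2/M, and for 9.55% of all genes. The medians were -0.10 for G1, 0.03 for S and -0.01 for G2/M, against 0.02 for all genes, and the log2 fold changes had a range of -1.23 to 1.14.

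At day 10 few of these genes passed the test of Sam68 KO against WT, which in simulated counts found 44% of genes changed 2-fold. The comparison shares no library with day 0 and called 24 genes in all, 10 of them higher (0.0730% of those tested) and 14 lower (0.102%), by edgeR. Sam68 KO was in MIX_3 and WT in MIX_2 at day 10, so genotype and pool cannot be told apart here either. None of the 85 higher genes was called at day 10. Their median log2 fold change was -0.12 and 33 of 85 were positive, where 49.2% of all genes were. Of the 88 lower genes 4 were called lower again (4.55%, where 0.102% of all genes were). Their median was -0.28, with 58 of 88 negative. It was -0.38 when WT replicate 3 and Sam68 KO replicates 2 and 3 of day 10 were left out, with Sam68 KO replicate 1 alone in its group. The 27 genes that were at least 8-fold lower at day 0 had a median of -1.48, with 24 negative, and the other 61 a median of -0.08, with 34 negative; this division was made after the values had been seen.

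The difference between days was also tested directly, as the day 10 difference minus the day 0 difference. Over all genes 59 passed (0.431%), 18 with a positive (0.131%) and 41 with a negative value (0.299%), by edgeR. Of the 85 higher genes 34 passed, all negative, and of the 88 lower genes 16 passed, all positive. The test uses again the day 0 libraries that chose the genes, which favours these signs. Pool differed between Sam68 KO and WT on both days, and its part in this change was not tested. The count of 59 went to 96 without WT day 10 replicate 3 and to 16 without Sam68 KO day 10 replicate 2.

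Sam68 KO and Quaking KO were sequenced together in MIX_3 at day 10, which gives a comparison of Sam68 KO within 1 pool. By edgeR, 13.0% of the genes tested were higher (1787) and 10.6% lower (1455) in Sam68 KO, a split of 55.1% higher that was 44.5% with RLE scaling. Of the 85 genes higher at day 0, 32 were higher (37.6%) and 12 lower (14.1%) than in Quaking KO, with a median log2 fold change of 0.42 against 0.03 for all genes. With RLE scaling these counts were 31 and 15, and the median was 0.33 against -0.06. A higher level than in Quaking KO was not particular to Sam68 KO. The median level of the 85 genes at day 10 was 69.4 to 74.1 CPM in Sam68 KO and 70.5 to 82.6 in WT, against 39.5 to 46.4 in Quaking KO. Of the 88 genes lower at day 0, 20 were higher (22.7%) and 10 lower (11.4%), with a median of 0.20.

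**Figure D5:**
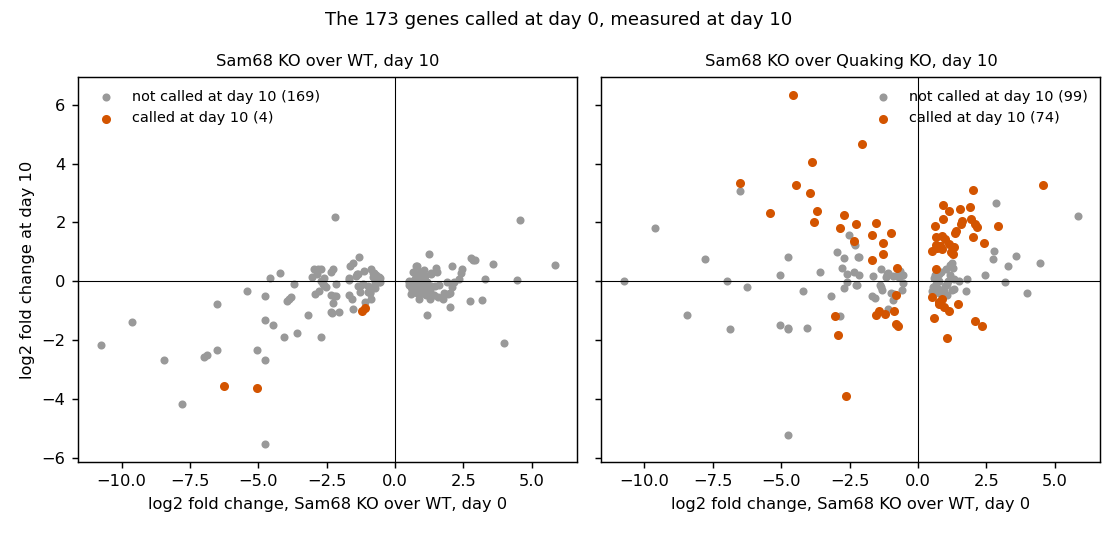
Log2 fold changes at day 10, Sam68 KO over WT (left) and over Quaking KO (right), against that of Sam68 KO over WT at day 0, for the 173 genes called at day 0; orange points passed the test at day 10. On the left 4 points are orange, all with a negative value at both days, and on the right 74 are, in all 4 quadrants.

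In a model that adds up effects of line, day and pool, the Sam68 effect is 1 value for both days, made up of Sam68 KO against Quaking KO at day 10 and Quaking KO against WT at day 0. With edgeR it gave 509 higher genes and 692 lower ones, of which 19 and 12 were among the 85 and 88. None of the 4 features above passed in it (edgeR, adjusted p = 1, 0.653, 0.578 and 0.993 in the order given), and 3 of them changed sign. It uses no difference between Sam68 KO and WT at day 0 and so gives no within-pool value for the day 0 comparison.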

How the data were processed

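Ribosome-protected fragments of 18 libraries were measured as raw counts per Ensembl gene ID, deposited as 1 file per library with 51826 features. The submitters' processing notes name bcl2fastq 2.17.1.14, STAR 2.5.3a and Bowtie2, and the builds GRCm38 and mm10. How features were counted, on which annotation and whether by strand is not given in the sources used here, so values of overlapping or antisense genes and of near-identical copies are uncertain. Titles gave groups and replicate numbers, and descriptions gave pools.

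The counts were tested with edgeR 4.0.16 (R 4.3.3): TMM scaling, filterByExpr by group, and a robust quasi-likelihood fit of group means over the 18 libraries. The filter left 13701 of 33167 detected features, holding 99.4% or more of every library. Each of 4 comparisons was adjusted by Benjamini-Hochberg over all genes tested. CPM are counts scaled by the TMM library sizes. An SE is the log2 fold change over the square root of its F statistic. The floor of 3 counts was 0.301 to 0.519 CPM in the Sam68 KO libraries of day 0 and 0.233 to 0.436 in the WT ones, and covers counting error only. Replicates all differed by more than sampling noise (lowest chi-square per degree of freedom 4.82).

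Printed features had to pass the test, reach 10 CPM in the higher group and show no overlap of libraries. This left 62 higher and 55 lower features, of which the 2 with the largest fold per direction are given. The rule asked for more genes, by symbol, but 0 IDs matched the 49997 genes of the reference table. For the same reason 33 gene lists written by symbol, the cell type markers and the protein-coding alternative were not used. They were replaced by the rising and falling genes and by scran 1.30.0's cell-cycle markers (genes given first in marker pairs of 1 phase alone). The comparison, lists and rules were chosen with earlier results of these data known.

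With 50 genes changed at each fold in simulated counts, the day 0 test found 8% at 1.5-fold, 52% at 2-fold, 72% at 4-fold and 92% at 8-fold, and 5.08% of its calls were false. For Sam68 KO vs WT at day 10 these were 12%, 44%, 68% and 96%, and 2.65%. Other settings were RLE or upper quartile scaling, an unfiltered table, DESeq2 1.42.0, fewer libraries in the fit, blocks for replicate or pool, thinning and leaving out single libraries. Leaving out the 3 day 10 libraries dominated by few features was a setting chosen once the data were known.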

Additional observations from a re-analysis of the deposited data

Results flagged for a closer look

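For 2 of the 4 features the difference between Sam68 KO and WT was not the same on the 2 days, by a test of that change itself. For ENSMUSG00000047228.9 the day 10 difference minus the day 0 difference was 8.25 on the log2 scale (edgeR, adjusted p = 4.87e-07), and no library of day 10 exceeded 7.05 CPM. For ENSMUSG00000021381.4 it was -6.09 (edgeR, adjusted p = 0.0374). Sam68 KO lay above WT in all libraries of day 0 and below WT in all libraries of day 10. The day 10 values came from only 11, 3 and 2 counts in Sam68 KO and 27, 11 and 13 in WT. The highest of them, 30.5 CPM, was that of WT replicate 3, a library dominated by few features. The day 10 difference minus the day 0 difference was -5.3 for ENSMUSG00000097575.2, which did not pass (edgeR, adjusted p = 0.0725). The test could not decide for ENSMUSG00000061928.6, as Sam68 KO had no count on either day and WT had 1 at day 10. All 4 features were chosen for their difference at day 0, and pool differed between Sam68 KO and WT on both days.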

How the results depend on the processing

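RLE and upper quartile scaling kept every count within 1.5 times its value, as did the replicate block (164 genes at day 0, 156 of them shared with the 173). Replicate numbers did not pair the libraries: deviations of same-numbered Sam68 KO and WT day 0 libraries correlated at 0.143, 0.0816 and -0.183, and not every library correlated best with its own number. Without the filter on low counts, 268 genes were called at day 0, 95 at day 10 and 129 for the change between days. Fits of only the groups compared gave 297, 11 and 36, and the fit of the 9 day 0 libraries 385. DESeq2 called 255 genes at day 0, 172 of them shared with the 173, 69 at day 10 and 123 for the change between days. Thinning left 36 at day 0, 4 at day 10, 585 between Sam68 KO and Quaking KO and 9 for the change between days, which limits what shallower libraries could show. Without the 3 dominated libraries the change between days was called for 30 genes, and 257 were called at day 0. Leaving out single libraries gave 81 to 217 genes at day 0, 10 to 53 at day 10, 2389 to 3149 between the knockouts and 16 to 96 for the change between days. The model with pool gave 1201 genes, and log2 fold changes of 0.42 for ENSMUSG00000061928.6, 0.87 for ENSMUSG00000047228.9 and -0.13 for ENSMUSG00000021381.4, opposite in sign, since it takes no value from Sam68 KO against WT at day 0. Under the other 15 settings ENSMUSG00000061928.6, ENSMUSG00000047228.9 and ENSMUSG00000097575.2 kept their direction and passed. The share of rising genes among those higher at day 0 was 33.3% to 78.8% over all settings but the pool model, where it was 17.7%, and that of falling genes among the lower ones 34.1% to 63.2%, against 7.51%. The background moved as well: of the genes tested, 11.5% (without the filter) to 27.8% were rising and 8.18% (without the filter) to 22.1% falling. The value of the pool model contains Quaking KO at day 0 minus Quaking KO at day 10, the reverse of the change that defines the rising and falling genes. Its shares are therefore no check of the others. The cause of the other differences was not tested. The alternative limited to protein-coding genes was not run.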
